A study of Bos indicus with 12 samples.

Results

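Collagen and laminin chains, the building blocks of interstitial fibrils and of basement membranes, were compared in the corpus luteum (CL) of cows that were pregnant (P) or not (NP). The chains are the genes whose symbol is COL, a number, A and a number, or LAMA, LAMB or LAMC and a digit. Of 15178 genes in the table, 43 had such a symbol, 33 of them collagen and 10 laminin chains, and no symbol was repeated. The choice used names only and no measured value. The cows were non-lactating, multiparous Bos indicus in a synchronized cycle, and their CL were collected at slaughter on day 18. P cows had been inseminated with semen of Aberdeen Angus bulls and were taken as pregnant by an elongated embryo in the uterine flush, expression of interferon-stimulated genes and serum progesterone, whereas NP cows had been synchronized in the same way and not inseminated. The CL of all cows were functional by plasma progesterone. RNA of 6 P and 6 NP cows was sequenced from poly-A, 1 library per cow, so that a replicate is an animal. NP cows are day-matched cyclic animals, so that insemination, the embryo and its signals differ together between the groups.

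Collagens are helical trimers of alpha chains that bear glycine at regular steps. The fibrillar types (I, II, III, V, XI, XXIV and XXVII) give tissue its tensile strength, and type V sits in the core of type I fibrils and limits their width. Type IV collagen forms a sheet-like network in every basement membrane, where it meets the laminins, cross-shaped trimers of an alpha, a beta and a gamma chain that bind integrins and dystroglycan on cells. The CL grows from the wall of the ruptured follicle, whose own basement membrane is lost at ovulation, and becomes one of the most densely vascularized tissues of the body, and its matrix includes capillary basement membranes and a collagen stroma.

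The values are normalized counts, that is reads per gene divided by the size factor of the library. They are not corrected for gene length, so that levels are compared between cows and not between genes. The reads on genes came to 6148184 to 8253360 in the NP and 2038858 to 7534503 in the P libraries. The smallest libraries were those of P cows 01 (3152328 reads), 18 (2589954 reads) and 28 (2038858 reads), and the calls were repeated without these cows. For CYP11A1, which makes pregnenolone from cholesterol, the level was 49770.2 ± 5616 in NP and 59210 ± 8835 in P cows (SD, n = 6), and for STAR, the cholesterol carrier of steroidogenic cells, it was 35691 ± 13586 in NP and 24852 ± 9459.9 in P cows. These genes mark steroidogenic luteal cells. In such bulk tissue, fewer cells of a type and less RNA per cell cannot be told apart.

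In the CL of P cows, 4 of the 6 chains of type IV collagen were lower, the laminin chain LAMB3 and the collagen chain COL16A1 were higher, and the chains of types I and III did not pass. Log2(normalized count + 1) was compared by limma over the 11907 genes that reached a value of 30 in 1 cow or more. A gene was called when its Benjamini-Hochberg adjusted p was below 0.05 and its log2 fold change, P minus NP, at least 0.58 in size. Of the 43 chains 38 were tested, of which 6 were higher and 7 lower in P cows. These are 34.2% of the chains tested, against 26.8% of all genes tested (12% higher and 14.8% lower), and their median log2 fold change was -0.00121, against -0.01 over all genes tested. The groups did not overlap in 6 chains, namely COL16A1, COL7A1 and LAMB3 (higher) and COL4A1, COL4A2 and COL4A6 (lower), where 13.6% of all genes tested did not overlap (6.21% higher and 7.41% lower). The share of chains called thus lay near the background, and it is the single chains that are described here. Of the calls, 5 (COL4A6, COL6A5, COL7A1, COL9A3 and COL11A2) concern chains that reached a value of 30 in the cows of 1 group only. Such a chain could enter the test only through the group in which it was high. COL4A6 and COL7A1 are also among the 6 chains without overlap, and COL4A6 is among the 4 lower chains of type IV. Among the 33 chains with a value of 30 in both groups, 3 were higher and 5 lower. Of these, LAMC3 (lower) reached 30 in 1 P cow only.

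**Figure D1:**
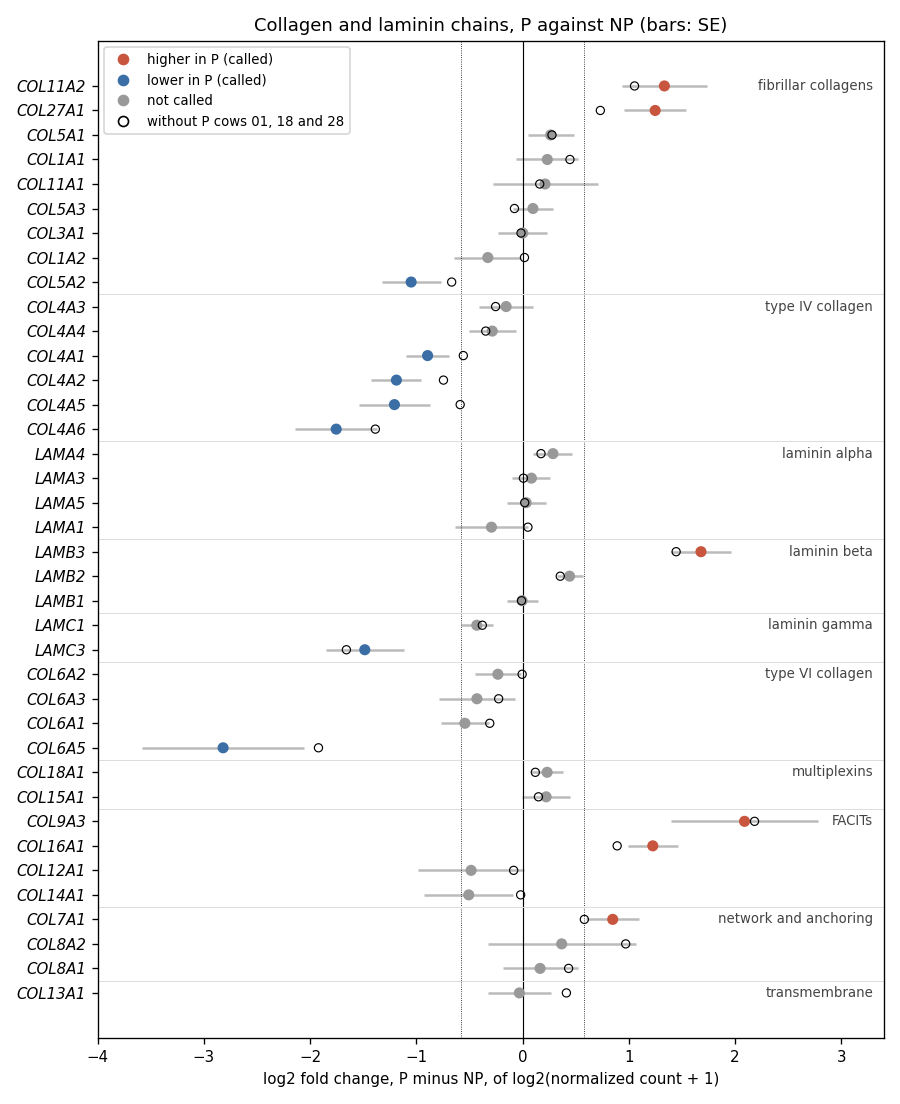
Log2 fold change (P minus NP, 6 cows each) of the 38 chains tested, by class, with bars of 1 SE; dotted lines mark the fold minimum of 0.58 in size and open circles the values without P cows 01, 18 and 28. The 4 called chains of type IV lie to the left, from -1.75 for COL4A6 to -0.89 for COL4A1, and LAMB3 at 1.68 and COL16A1 at 1.23 lie to the right.

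Of the 15 basement membrane chains tested, those of type IV and the laminins, 1 rose and 5 fell (40%, against 26.8% of all genes tested). Among the chains of type IV, COL4A1, COL4A2, COL4A5 and COL4A6 fell in the CL of P cows, and COL4A3 and COL4A4 did not pass. The 4 are 66.7% of the 6 chains of type IV, where 14.8% of all genes tested were lower. COL4A1 and COL4A2 make up the trimer found in nearly all basement membranes, including those of capillaries. COL4A1 ran from 8116 to 12932 (median 9799) in NP and from 3557 to 7862 (median 5216) in P cows. COL4A1 had a log2 fold change of -0.89 with an SE of 0.20, adjusted p = 0.00466. COL4A2 ran from 3719 to 7132 (median 4826) in NP and from 1398 to 3560.1 (median 2312) in P cows. COL4A2 had a log2 fold change of -1.19 with an SE of 0.24, adjusted p = 0.00251. For both genes each P cow lay below each NP cow, and the lowest values were those of P cows 18, 01 and 28. Without these 3 cows COL4A1 did not pass (log2 fold change of -0.56 at an adjusted p of 0.0803) and COL4A2 did (log2 fold change of -0.74 at an adjusted p of 0.0396).

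COL4A5 and COL4A6 form a trimer that is known from the basement membranes of smooth muscle and some epithelia, and COL4A5 also joins COL4A3 and COL4A4 in the network of the kidney glomerulus. COL4A5 ran from 195 to 408 (median 249) in NP and from 55.5 to 280.1 (median 129) in P cows. COL4A5 had a log2 fold change of -1.21 with an SE of 0.33, adjusted p = 0.0124. P cow 19, at 280.1, lay among the NP cows and the other 5 below them all. COL4A6 ran from 42.1 to 96.4 (median 54.4) in NP and from 4.11 to 26.1 (median 20.5) in P cows (log2 fold change of -1.75 with an SE of 0.38, adjusted p = 0.00403), with at most 28 reads in a P cow and 2 reads in P cow 18. Each P cow was below each NP cow. Without P cows 01, 18 and 28, COL4A6 passed (log2 fold change of -1.39 at an adjusted p of 0.0172) and COL4A5 did not (log2 fold change of -0.59 at an adjusted p of 0.176). COL4A3 ran from 79.9 to 167 (median 108) in NP and from 65.3 to 182 (median 96.02) in P cows. COL4A3 had a log2 fold change of -0.15 at an adjusted p of 0.649. For COL4A4 the values ran from 79.3 to 125 (median 98.6) in NP and from 59.3 to 137 (median 67.6) in P cows. COL4A4 had a log2 fold change of -0.29 at an adjusted p of 0.328. P cow 01 held the highest value of all cows in both, and the remaining P cows lay between the NP cows or below them. In the RefSeq gene table, COL4A1 and COL4A2, COL4A3 and COL4A4, and COL4A5 and COL4A6 are direct neighbours. With all cows, both members of each of these couples were called or neither was. Without P cows 01, 18 and 28 this did not hold, as COL4A2 and COL4A6 passed and COL4A1 and COL4A5 did not. A part of gene position in the calls was not tested. The strand setting of the read counting is not given in the sources used here.

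Of the 9 laminin chains tested 1 rose and 1 fell (22.2%, against 26.8% of all genes tested). LAMB3, the beta chain of the laminin of epithelial anchoring structures, ran from 32.7 to 67.02 (median 42.5) in NP and from 74.2 to 247 (median 144) in P cows. LAMB3 had a log2 fold change of 1.68 with an SE of 0.29, adjusted p = 0.00139. Every P cow exceeded every NP cow, and the highest were P cows 19 and 18. LAMB3 was the only chain called in every setting tried. It passed without P cows 01, 18 and 28 (log2 fold change of 1.45 at an adjusted p of 0.0255) and with a covariate for the log2 library total (log2 fold change 1.53, adjusted p = 0.0363). LAMA3, an alpha chain of epithelial laminins, ran from 64.5 to 91.1 (median 66.9) in NP and from 60.3 to 107 (median 75.9) in P cows, with no call (log2 fold change of 0.08 at an adjusted p of 0.737). LAMC3, a gamma chain of other trimers, fell: it ran from 32.01 to 109 (median 64.4) in NP and from 13.1 to 61.9 (median 17.5) in P cows. LAMC3 had a log2 fold change of -1.49 with an SE of 0.37, adjusted p = 0.00738, at 5 to 38 reads in P cows. P cow 01, at 61.9, lay among the NP cows, and the other 5 P cows lay below all NP cows. Without P cows 01, 18 and 28 the call held (log2 fold change of -1.66 at an adjusted p of 0.0174).

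The remaining laminin chains were not called. LAMB1, part of the classical laminins, ran from 2809.6 to 4522 (median 3469) in NP and from 2913 to 4238 (median 3462) in P cows (log2 fold change of -0.00 with an SE of 0.15, adjusted p = 0.983), and all P cows lay within the range of the NP cows. LAMC1, the gamma chain of most laminins, ran from 763 to 1479 (median 1044) in NP and from 687 to 918 (median 785) in P cows and had an adjusted p of 0.0357, but its log2 fold change of -0.43 fell short of the minimum. LAMB2, the beta chain of vascular and synaptic laminins, ran from 778 to 1195 (median 1002) in NP and from 1172 to 1488 (median 1433) in P cows, with 4 P cows above all NP cows, and its log2 fold change of 0.44 (adjusted p = 0.0127) also fell short. The alpha chains, which carry the main binding sites for cell receptors, did not pass. LAMA4, the alpha chain of capillary endothelium, ran from 366 to 629.5 (median 455) in NP and from 364 to 791 (median 554) in P cows (log2 fold change of 0.29 at an adjusted p of 0.232), with P cows 28 and 29 above all NP cows. LAMA5, the other endothelial alpha chain, ran from 115 to 209.9 (median 150.2) in NP and from 111 to 214 (median 154) in P cows. LAMA5 had a log2 fold change of 0.03 at an adjusted p of 0.8999. LAMA1, best known from embryonic and epithelial basement membranes, ran from 1119 to 2438 (median 1967) in NP and from 432 to 2449.9 (median 1811) in P cows (log2 fold change of -0.29 at an adjusted p of 0.522), where P cow 18 at 432 was the lowest of all cows.

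**Figure D2:**
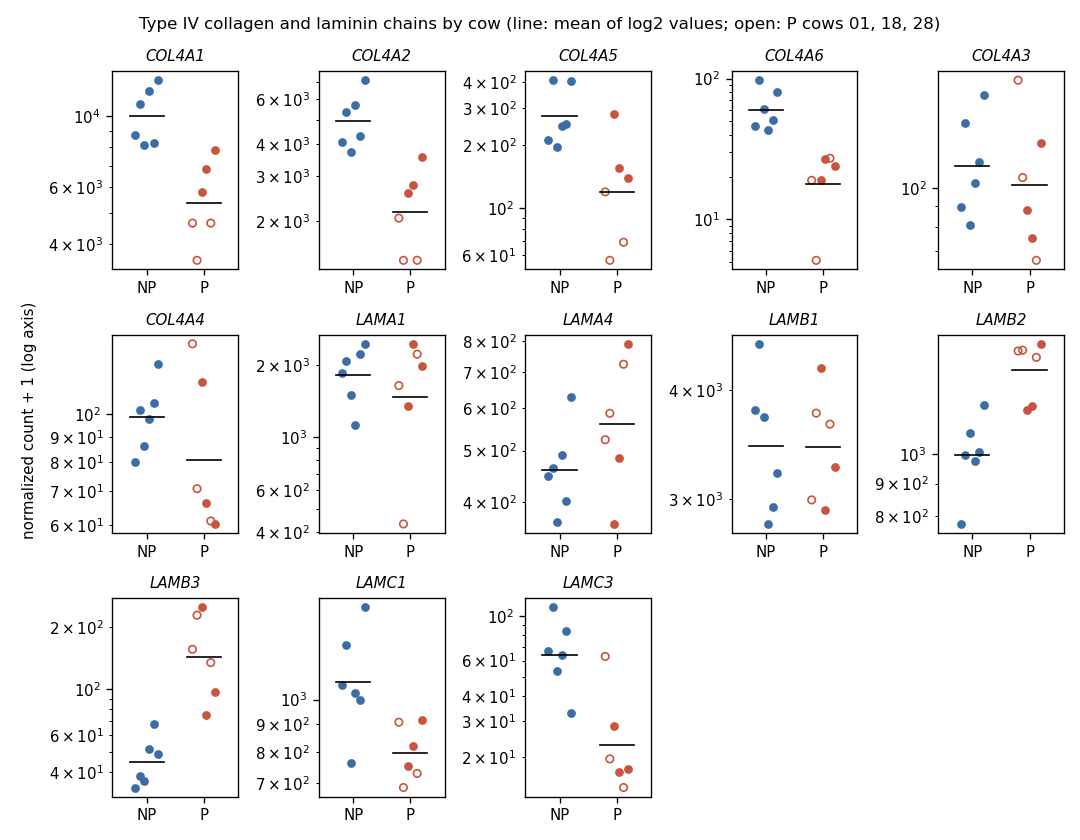
Normalized count + 1 (log axis) of type IV collagen and laminin chains in each cow, with cows in the order of their numbers within NP (blue) and P (red), open symbols for P cows 01, 18 and 28, and a line at the mean of the log2 values. COL4A1, COL4A2 and COL4A6 are lower in all 6 P cows than in any NP cow, LAMB3 is higher in all 6, and LAMB1 in P cows stays within the range of the NP cows.

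Of the 9 fibrillar chains 2 rose and 1 fell (33.3%, near the 26.8% of all genes tested), and the chains of types I and III did not pass. Of these calls, COL11A2 reached a value of 30 in P cows only. COL1A1 and COL1A2 encode the chains of type I collagen, the main fibril of connective tissue, and COL3A1 that of type III, its usual companion in pliable tissue. COL1A1 ran from 9685 to 27332 (median 16878) in NP and from 11295 to 30626 (median 22193) in P cows. COL1A1 had a log2 fold change of 0.23 with an SE of 0.29, adjusted p = 0.551. COL1A2 ran from 5028 to 16756 (median 9584) in NP and from 3757 to 12031 (median 9071) in P cows. COL1A2 had a log2 fold change of -0.33 with an SE of 0.32, adjusted p = 0.432. COL3A1 ran from 8295 to 22719.5 (median 14978) in NP and from 10767 to 20449.9 (median 15282) in P cows. COL3A1 had a log2 fold change of 0.00 with an SE of 0.23, adjusted p = 0.995. In all these genes the groups overlapped over most of their range, and NP cow 32 and P cow 18 were the lowest of their groups.

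Chains of type V, which joins type I in mixed fibrils, differed from each other. COL5A2 fell: it ran from 379.5 to 858 (median 669.5) in NP and from 142 to 526 (median 313) in P cows (log2 fold change of -1.05 with an SE of 0.28, adjusted p = 0.0104), with 4 P cows below all NP cows, and without P cows 01, 18 and 28 it did not pass (log2 fold change of -0.67 at an adjusted p of 0.105). COL5A1 ran from 719 to 1678 (median 1058) in NP and from 969.8 to 1964 (median 1239) in P cows. COL5A1 had a log2 fold change of 0.26 at an adjusted p of 0.3499. COL5A3 ran from 218 to 424 (median 281) in NP and from 232 to 395 (median 342) in P cows. COL5A3 had a log2 fold change of 0.10 at an adjusted p of 0.699. Neither passed, and P cow 01 was the highest of all cows in COL5A1. Accordingly, the ratio of COL5A1 to COL5A2 within a library ran from 1.08 to 2.51 (median 1.66) in NP and from 2.54 to 7.16 (median 4.05) in P cows, a ratio chosen after the values were seen and therefore given with no test. In the RefSeq gene table COL5A2 is the direct neighbour of COL3A1, which had a log2 fold change of 0.00218.

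COL27A1, a fibrillar chain known from cartilage, rose: it ran from 187 to 499.8 (median 312) in NP and from 422 to 1521 (median 745) in P cows. COL27A1 had a log2 fold change of 1.25 with an SE of 0.29, adjusted p = 0.00535. The 4 highest cows were P cows 01, 28, 18 and 29, and P cows 19 and 27 lay below NP cow 42. Without P cows 01, 18 and 28 it did not pass (log2 fold change of 0.73 at an adjusted p of 0.0843). COL11A2, a chain of the minor cartilage fibril of type XI, rose at low counts, as it ran from 3.89 to 18.2 (median 7.5) in NP and from 11.9 to 32.9 (median 20.03) in P cows (log2 fold change of 1.33 with an SE of 0.40, adjusted p = 0.0186), with 6 to 23 reads in P cows. Its call did not hold without these 3 cows (log2 fold change of 1.05 at an adjusted p of 0.136). COL11A1, which joins COL11A2 in that fibril, ran from 16.7 to 169.9 (median 50.7) in NP and from 24.7 to 115 (median 60.3) in P cows. COL11A1 had a log2 fold change of 0.21 at an adjusted p of 0.758. It did not pass, and NP cow 42 was the highest of all cows.

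A ratio of 2 genes within a library does not depend on its size factor. The ratios of 5 couples of partner chains were compared by a two-sided exact permutation test over all splits of the 12 cows into 6 and 6, with p adjusted over the 5 ratios. The smallest p that 6 against 6 cows allow is 0.00216. Without P cows 01, 18 and 28 there are fewer splits, so that the smallest p allowed is larger and the p-values are coarse. The ratio of COL1A1 to COL1A2, which are built into type I collagen at a fixed proportion, ran from 1.63 to 1.996 (median 1.88) in NP and from 2.28 to 3.01 (median 2.78) in P cows (difference of mean log2 ratios 0.56, exact permutation p = 0.00216, adjusted p = 0.00361). The groups did not overlap, and the highest ratios were those of P cows 18, 28 and 01. Without these 3 cows the difference was 0.43 (adjusted exact permutation p = 0.0198). The ratio of COL4A1 to COL4A2 ran from 1.81 to 2.18 (median 2.07) in NP and from 2.21 to 3.32 (median 2.37) in P cows (difference of mean log2 ratios 0.29, exact permutation p = 0.00216, adjusted p = 0.00361), so that COL4A2 had fallen further than COL4A1, and P cow 28 was the highest. Without the 3 cows it was 0.19 (adjusted exact permutation p = 0.0298).

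COL6A1 and COL6A2 encode chains of type VI collagen, a beaded filament close to cells. Their ratio ran from 1.298 to 1.504 (median 1.38) in NP and from 1.04 to 1.23 (median 1.103) in P cows (difference of mean log2 ratios -0.31, exact permutation p = 0.00216, adjusted p = 0.00361). Here too the groups did not overlap, and the difference without P cows 01, 18 and 28 was -0.30. Within a group COL6A1 and COL6A2 varied together. Among P cows the SD of the log2 values was 0.49 for COL6A1 and 0.47 for COL6A2. That of their log2 ratio was 0.09. For type I the SDs among P cows were 0.54 and 0.65, and that of the log2 ratio was 0.16. LAMB1 and LAMC1 did not vary together, with SDs among P cows of 0.21 and 0.17 and 0.35 for their log2 ratio. For COL3A1 and COL1A1 the SDs among P cows were 0.30 and 0.54, and that of the log2 ratio was 0.50. The ratio of LAMB1 to LAMC1, from 2.17 to 4.87 (median 3.26) in NP and from 3.297 to 5.63 (median 4.28) in P cows, did not pass (difference of mean log2 ratios 0.43, exact permutation p = 0.0736, adjusted p = 0.09199). The ratio of COL3A1 to COL1A1 ran from 0.678 to 0.946 (median 0.8502) in NP and from 0.504 to 1.21 (median 0.654) in P cows and did not pass (difference of mean log2 ratios -0.23, exact permutation p = 0.314, adjusted p = 0.314), with P cows 28 and 18 above and the other 4 P cows below all NP cows. Without P cows 01, 18 and 28 it was lower in P cows, with a difference of -0.46 on the log2 scale (adjusted exact permutation p = 0.0198). That setting was added after results were seen. Differences in base composition and length between the chains were not corrected for.

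**Figure D3:**
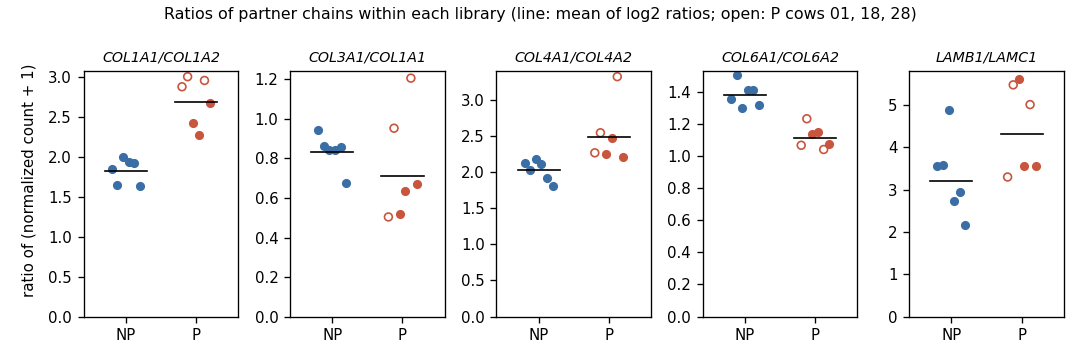
Ratio of (normalized count + 1) of partner chains in each library, for NP (blue) and P (red) cows, with open symbols for P cows 01, 18 and 28 and a line at the mean of the log2 ratios; each axis starts at 0. The ratio of COL1A1 to COL1A2 is at least 2.28 in P and at most 1.996 in NP cows, and that of COL6A1 to COL6A2 is lower in every P cow than in any NP cow.

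Of the 14 other collagens tested 3 rose and 1 fell (28.6%, near the 26.8% of all genes tested). Of these calls, COL7A1 and COL9A3 reached a value of 30 in P cows only and COL6A5 in NP cows only. COL16A1 alone of them reached it in both groups. Type VI itself was not called in its main chains: COL6A1 ran from 2221 to 4737 (median 3341) in NP and from 1168 to 2906 (median 2528) in P cows. COL6A1 had a log2 fold change of -0.54 at an adjusted p of 0.0706. COL6A2 ran from 1641 to 3599.8 (median 2387) in NP and from 1124 to 2708 (median 2219) in P cows. COL6A2 had a log2 fold change of -0.23 at an adjusted p of 0.4203. The third main chain, COL6A3, ran from 358 to 786 (median 429.8) in NP and from 125 to 897 (median 372) in P cows. COL6A3 had a log2 fold change of -0.43 at an adjusted p of 0.362. P cow 28 was the lowest of all cows in each, and the groups overlapped. COL6A1 was called lower when NP cow 05, its lowest NP cow, was left out. COL6A5, a rarer chain of type VI, fell: it ran from 7.54 to 55.8 (median 30.3) in NP and from 0 to 19.8 (median 2.69) in P cows. COL6A5 had a log2 fold change of -2.82 with an SE of 0.76, adjusted p = 0.0116. It had no read in P cows 01 and 18 and at most 88 reads in any cow, so that the fitted fold change depends on the pseudocount. P cow 27 lay among the NP cows. Without P cows 01, 18 and 28 the call was lost (log2 fold change of -1.92 at an adjusted p of 0.105).

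Members of the FACIT group, collagens that attach to the surface of fibrils, were mixed. COL16A1 rose: it ran from 68.7 to 131 (median 118) in NP and from 194 to 521 (median 218) in P cows (log2 fold change of 1.23 with an SE of 0.24, adjusted p = 0.00222), with each P cow above each NP cow. P cow 01 was the highest at 521, and without P cows 01, 18 and 28 the call held (log2 fold change of 0.89 at an adjusted p of 0.0218). COL9A3, a cartilage chain, was called higher at 0 to 19 reads per cow. It ran from 0 to 3.81 (median 1.47) in NP and from 2.61 to 30.9 (median 10.2) in P cows (log2 fold change of 2.09 with an SE of 0.69, adjusted p = 0.0295), and the call was lost when NP cow 32, P cow 01, P cow 19 or P cow 27 was left out, when the 3 smallest libraries were left out (log2 fold change of 2.18 at an adjusted p of 0.0597) and when all libraries were thinned to 2038858 reads (log2 fold change 1.79, adjusted p = 0.121). COL12A1 and COL14A1, which bind type I fibrils, did not pass. COL12A1 ran from 156 to 1079 (median 268) in NP and from 69.9 to 575 (median 280.1) in P cows. COL12A1 had a log2 fold change of -0.48 at an adjusted p of 0.464. COL14A1 ran from 334 to 1317 (median 519) in NP and from 120.2 to 762 (median 543) in P cows. COL14A1 had a log2 fold change of -0.51 at an adjusted p of 0.359. NP cow 42 was the highest of all cows in both, and P cows 18 and 28 the lowest.

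COL7A1, which forms the anchoring fibrils of epithelial basement membranes, rose at low counts. It ran from 14.2 to 19.8 (median 16.9) in NP and from 20.8 to 40.7 (median 34.3) in P cows (log2 fold change of 0.85 with an SE of 0.25, adjusted p = 0.0177), with 13 to 42 reads in P cows and no overlap, and it did not pass without P cows 01, 18 and 28 (log2 fold change of 0.58 at an adjusted p of 0.162). The multiplexins are found at vascular basement membranes. COL18A1, the precursor of endostatin, ran from 3025 to 4108 (median 3429) in NP and from 3065 to 5036 (median 4097) in P cows (log2 fold change of 0.23 at an adjusted p of 0.231), with P cows 01, 18 and 29 above all NP cows. COL15A1 ran from 386 to 816 (median 498) in NP and from 489 to 1132 (median 579.9) in P cows. COL15A1 had a log2 fold change of 0.22 at an adjusted p of 0.452. Neither passed. The network-forming chains COL8A1 and COL8A2, known from vessel walls, did not pass either. COL8A1 ran from 112 to 562 (median 294) in NP and from 187 to 524 (median 322) in P cows. COL8A1 had a log2 fold change of 0.16 at an adjusted p of 0.736. COL8A2 ran from 19.8 to 239 (median 29.8) in NP and from 8.23 to 218 (median 46.9) in P cows (log2 fold change of 0.37 at an adjusted p of 0.7004), with NP cow 42 the highest and P cow 18 the lowest of all cows. The transmembrane collagen COL13A1 did not pass: it ran from 66.9 to 173 (median 88.2) in NP and from 59.6 to 222 (median 89.2) in P cows (log2 fold change of -0.03 at an adjusted p of 0.945), and P cow 29 was the highest of all cows. Below the filter were 5 chains, among them COL9A2, COL20A1, COL26A1 and COL28A1, with at most 25 reads in a cow.

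**Figure D4:**
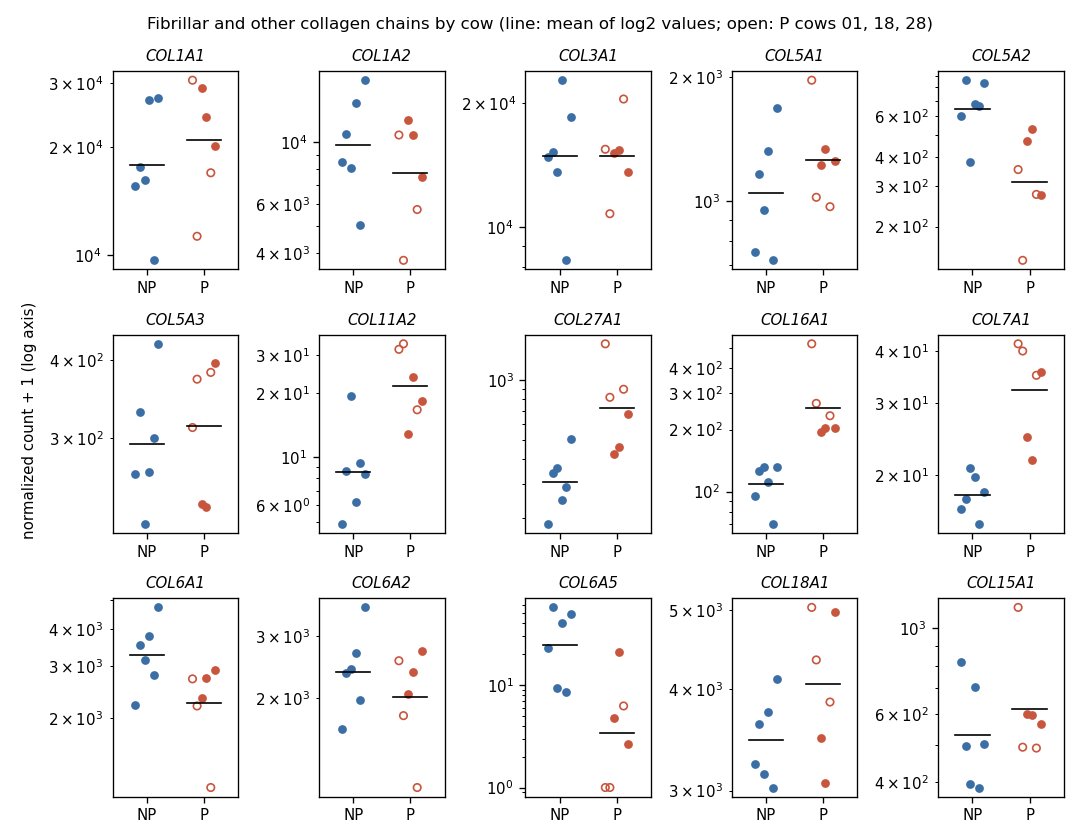
Normalized count + 1 (log axis) of fibrillar and other collagen chains in each cow, with cows in the order of their numbers within NP (blue) and P (red), open symbols for P cows 01, 18 and 28, and a line at the mean of the log2 values. COL16A1 and COL7A1 are higher in all 6 P cows than in any NP cow, and COL1A1, COL1A2 and COL3A1 overlap between the groups.

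The cows of a group differed from each other across many chains at once. Among the 38 chains tested, NP cow 42 had the highest NP value in 25 and NP cows 30 and 32 the lowest in 13 each. Among P cows, cow 01 had the highest value in 14 and cow 29 in 10, and cow 18 had the lowest in 15 and cow 28 in 9. The same was not counted over all genes, so that these counts do not single out the chains. Of the 13 called chains, 11 were further from the NP mean in P cows 01, 18 and 28 than in 19, 27 and 29. COL9A3 and LAMC3 were the exceptions. All 13 had the same sign in both sets of P cows. The chains were called on both sets together, so that a shared sign is largely fixed by this choice and is no separate check. Neither count was made over all called genes. When the 3 smallest libraries were left out, 2 chains were called higher (COL16A1 and LAMB3) and 3 lower (COL4A2, COL4A6 and LAMC3), where 11.8% of all genes were called (4.01% higher and 7.81% lower). With a covariate for the log2 library total LAMB3 alone was called, where 4.28% of all genes were (1.53% higher and 2.75% lower). The 3 smallest totals all belong to P cows, so that depth and pregnancy cannot be fully told apart by this covariate. Thinned to 2038858 reads each, the libraries gave 12 of the 13 calls, all but COL9A3, where 23.8% of all genes were called.

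**Figure D5:**
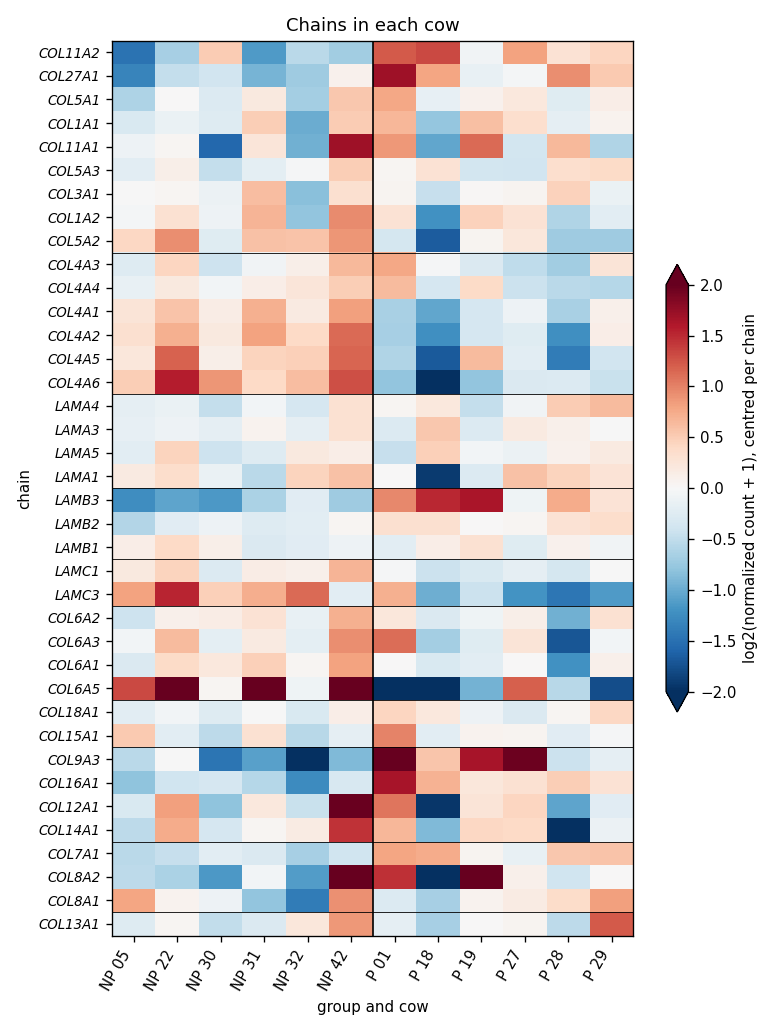
Log2(normalized count + 1) of each of the 38 chains tested, centred on its mean over the 12 cows (red above, blue below the mean; values beyond 2 in size share the end colours), with NP cows to the left and P cows to the right of the vertical line. NP cow 42 is red in most chains, P cow 18 is blue in many, and the 4 called chains of type IV are mostly red in NP and blue in P cows.

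The enzymes and chaperones that fold, cut and cross-link collagens were called in few cases. Of 31 tested, 0 rose and 4 fell (12.9%, against 26.8% of all genes tested), with a median log2 fold change of -0.20. ADAMTS3, a procollagen N-proteinase, fell (58.95 ± 15.2 in NP and 25.99 ± 9.65 in P cows, SD, n = 6, log2 fold change of -1.19 with an SE of 0.28, adjusted p = 0.00533), as did MIA3, which loads procollagen into vesicles at the endoplasmic reticulum (1398 ± 215 in NP and 802 ± 305 in P cows, log2 fold change of -0.87 at an adjusted p of 0.00585). COLGALT2, a collagen galactosyltransferase, was called lower (log2 fold change of -1.88 at an adjusted p of 0.00723), but it entered the test through NP cows only. P4HA1, a catalytic subunit of prolyl hydroxylase, was called lower (log2 fold change of -0.74 at an adjusted p of 0.0469), but not by edgeR or DESeq2, with 1 surrogate variable or after thinning, and in only 4 of 12 fits that left out 1 cow. Of these 4 only ADAMTS3 passed without P cows 01, 18 and 28 (log2 fold change of -1.26 at an adjusted p of 0.0188). SERPINH1, the chaperone of the collagen helix (log2 fold change of -0.23 at an adjusted p of 0.254), and the cross-linking enzyme LOX (log2 fold change of 0.03 at an adjusted p of 0.9397) did not pass.

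Other proteins of the basement membrane were mostly not called. Of 16 tested 1 rose and 1 fell (12.5%, against the same 26.8%), with a median log2 fold change of -0.13. AGRN, a heparan sulfate proteoglycan that binds laminin, rose (1346 ± 420.0 in NP and 2431 ± 617 in P cows, log2 fold change of 0.86 with an SE of 0.21, adjusted p = 0.00617), and NTN4, a laminin-related netrin, fell (58.96 ± 23.8 in NP and 23.99 ± 11.8 in P cows, log2 fold change of -1.29 with an SE of 0.34, adjusted p = 0.00997). Without P cows 01, 18 and 28, AGRN did not pass (log2 fold change of 0.66 at an adjusted p of 0.0931) and NTN4 did (log2 fold change of -1.26 at an adjusted p of 0.0421). The nidogens NID1 (log2 fold change of -0.09 at an adjusted p of 0.656) and NID2 (log2 fold change of 0.18 at an adjusted p of 0.341), which link laminin to type IV collagen, and the proteoglycan HSPG2 (log2 fold change of -0.16 at an adjusted p of 0.527) did not pass.

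Among 13 tested receptors of collagens and laminins 4 fell and 1 rose (38.5%, against 26.8% of all genes tested), with a median log2 fold change of -0.34. DAG1, which encodes dystroglycan, a laminin receptor, ran from 301 to 1255 (median 685) in NP and from 65.3 to 355 (median 155) in P cows (log2 fold change of -2.04 with an SE of 0.36, adjusted p = 0.00152), and it passed without P cows 01, 18 and 28 (log2 fold change of -1.95 at an adjusted p of 0.01098). ITGA1, whose integrin binds collagens, and above all type IV, ran from 44.1 to 138 (median 72.5) in NP and from 16.3 to 40.6 (median 27.8) in P cows (log2 fold change of -1.35 with an SE of 0.30, adjusted p = 0.00438) and its P cows all lay below its NP cows. ITGA6, a laminin-binding integrin subunit, ran from 889 to 1398 (median 927) in NP and from 457 to 776 (median 646) in P cows (log2 fold change of -0.66 with an SE of 0.15, adjusted p = 0.00532), also with each P cow below each NP cow. DDR2, a receptor kinase for fibrillar collagen, fell without overlap as well (log2 fold change of -0.96 at an adjusted p of 0.01303), and ITGA10, an integrin subunit for collagen known from cartilage, rose (log2 fold change of 1.08 at an adjusted p of 0.00633). Without the 3 cows, ITGA1 (log2 fold change of -1.05 at an adjusted p of 0.06097), ITGA10 (log2 fold change of 0.76 at an adjusted p of 0.0656) and DDR2 (log2 fold change of -0.73 at an adjusted p of 0.0871) did not pass, and ITGA6 missed the fold minimum (log2 fold change of -0.52 at an adjusted p of 0.0466), so that DAG1 alone of the 5 stayed called. ITGB1, the shared partner of these integrin subunits, did not pass (log2 fold change of -0.30 at an adjusted p of 0.111).

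Of 23 tested proteins that accompany collagen in the stroma 1 rose and 2 fell (13.04%, against the same 26.8%), with a median log2 fold change of 0.002201. LUM, a small proteoglycan on collagen fibrils, fell (6996 ± 1449 in NP and 2692 ± 1519 in P cows, log2 fold change of -1.55 with an SE of 0.32, adjusted p = 0.002995), also without P cows 01, 18 and 28 (log2 fold change of -1.02 at an adjusted p of 0.0339). POSTN, a matricellular protein, fell (log2 fold change of -0.89 at an adjusted p of 0.0285), but not without these cows (log2 fold change of -0.61 at an adjusted p of 0.238). ELN, which encodes elastin, rose (2236 ± 622 in NP and 3654 ± 606 in P cows, log2 fold change of 0.74 with an SE of 0.17, adjusted p = 0.00609), also without them (log2 fold change of 0.81 at an adjusted p of 0.0379). DCN, a further small proteoglycan of fibrils, did not pass (log2 fold change of -0.00 at an adjusted p of 0.995).

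Cell type markers were compared in the same fit. Of 11 tested endothelial markers 2 fell and 0 rose (18.2%, against 26.8% of all genes tested). The median log2 fold change of this list was -0.44, and 9 of its 11 values were below 0. PECAM1 (log2 fold change of -2.56 at an adjusted p of 0.00134) and CDH5 (log2 fold change of -1.19 at an adjusted p of 0.00218), both junction proteins, were lower in all P cows than in any NP cow and were also called without P cows 01, 18 and 28. The other 9 did not pass, with log2 fold changes from -0.55 for VWF to 0.28 for ROBO4. The summed level of the endothelial markers ran from 7124 to 12864 in NP and from 5259 to 11614 in P cows. Of 7 luteal markers 1 fell (PTGFR, also without these 3 cows), which is 14.3%, against the same 26.8%. Sums of the luteal markers ran from 155618 to 291639 in NP and from 189727 to 279586 in P cows. GAPDH (log2 fold change of -0.14 at an adjusted p of 0.543) and RPS26 (log2 fold change of 0.22 at an adjusted p of 0.288) did not pass.

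The summed level of 10 markers of pericytes and smooth muscle ran from 5978 to 14961 in NP and from 6373 to 15793 in P cows. In this list MCAM, PDGFRB and CSPG4 fell and CNN1, MYH11 and DES rose (60% called, against 26.8% of all genes tested). Of these 6, only MCAM was still called without P cows 01, 18 and 28 (log2 fold change of -0.91 at an adjusted p of 0.0365). When 1 cow at a time was left out, DES was called in 6 of 12 fits, MYH11 in 8, PDGFRB in 9, CSPG4 in 10 and CNN1 in 11. Of 9 fibroblast markers LUM fell and THY1 and PDGFRA rose (33.3%, against the same 26.8%). Their sums ran from 10962 to 18265 in NP and from 6292 to 17756 in P cows. Without the 3 cows LUM alone remained called, and with 1 cow left out THY1 was called in 9 and PDGFRA in 3 of 12 fits. LUM and DCN stand in this list and in that of stromal proteins. Of 8 leukocyte markers 1 rose (CD3E, 12.5%, against the same 26.8%), but not without the 3 cows (log2 fold change of 0.68 at an adjusted p of 0.0593). Leukocyte sums ran from 488 to 1313 in NP and from 754 to 1329 in P cows. Of the red cell markers HBB alone was tested, with values of 2.46 to 39.5. It entered the test through 1 P cow only, and its call was lost without the 3 cows (log2 fold change of 1.37 at an adjusted p of 0.107).

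P cow 01 stood apart in some, but not all, markers of granulosa and theca cells. Its level of AMH, a hormone of granulosa cells, was 611, against 8.37 to 37.01 in the other 11 cows. For CYP17A1, the androgen-producing enzyme of theca cells, it was 339, against 0 to 14.2 in the others, and for FSHR, the receptor of follicle-stimulating hormone, 122 against at most 57.5. CYP19A1, a further marker of the list, was 40.7 in this cow, the lowest P value and within the NP range of 23.6 to 52.5. INSL3 was 5414 and so made up most of this cow's sum of the 6 markers, 8478. That sum ran from 881 to 3963 in the other P cows and from 1117 to 4781 in NP cows. By limma 0 of the 6 markers were called (AMH alone had an unadjusted p below 0.05, at 0.0387), whereas edgeR and DESeq2 each called 2, AMH and CYP17A1, higher. The same cow was the highest of all in COL1A1, COL4A3, COL4A4, COL5A1, COL6A3, COL7A1, COL9A3, COL15A1, COL16A1, COL18A1 and COL27A1. How often it was the highest over all genes was not counted, and a link to the follicle markers was not tested. When it was left out, the calls of COL7A1, COL16A1 and COL27A1 held and that of COL9A3 did not. None of the cell type markers tested was at 0 in all cows, and the part of cell composition in the changes of the chains was not tested.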

How the data were processed

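Luteal RNA of 12 cows was measured. Per the labels and the study's methods, the authors trimmed the single-end reads with cutadapt, mapped them with STAR 2.4.2a to the Bos taurus assembly ARS-UCD1.2, counted reads per Ensembl gene with htseq-count and divided the counts by DESeq2 size factors. The strand setting is not given in the sources used here. The deposited values are thus a depth-scaled signal per gene (normalized counts), with 2 decimals in the file. Columns with the authors' own comparison (fold changes and p-values) were not used. In each library at least 99.9868% of values were whole multiples of 1 step, within 0.0051 normalized counts, and reads were recovered from these steps. Each cow gave 1 library, whose group was read from its label, and depth limits the precision of chains with few reads.

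Values of at least 30 in at least 1 cow were kept (11907 genes), and log2(value + 1) was fitted by limma 3.58.1 with trend in R 4.3.3, with no covariate and Benjamini-Hochberg adjustment over all genes fitted. Fold changes are on this scale, which can understate those of low genes. Low chains differed from edgeR in both directions. The log2 fold change of COL9A3 was 2.09 by limma and 2.82 by edgeR, and that of COL6A5 was -2.82 and -2.44. edgeR 4.0.16 on the recovered reads called 3203 genes, against 3197 by limma. Alternatives were edgeR, DESeq2 1.42.0, limma-voom, filters, pseudocounts, the fold minimum, 1 surrogate variable (sva 3.50.0) and leaving out cows. The fit was tested on simulated data. Differences in base composition were not corrected for.

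The chains, the gene lists and the tests were chosen with earlier results of these data known. Every chain could be named, as could, in each companion list, up to 4 called genes with the smallest p, and cell type markers. DDR2, ITGB1, SERPINH1, LOX, NID1, NID2, HSPG2 and DCN were named beyond this rule, after their values were seen. Neighbouring genes were taken from a RefSeq gene table of a Tharparkar (Bos indicus) assembly, NIAB-ARS_B.indTharparkar_mat_pri_1.0, in which 41 of the 43 chains were found. No sequences were used. The values of 1 chain below the filter are not reported here.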

Additional observations from a re-analysis of the deposited data

Results flagged for a closer look

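For each chain tested, in each group of 6 cows, the highest or lowest cow was set against the nearest other cow of the group, and a value was listed where this gap, as a share of the range of the group, exceeded the critical value of Dixon's test. Of 76 groups tested 11 were listed. The gaps were taken on normalized counts and not on the log2 scale of the fit. Chance lists about 1 in 20 only where values are normally distributed, which was not tested here. The count of 11 is therefore no measure of an excess over chance. P cow 01 stood apart in 4 chains of the P group. Its library was among the 3 smallest, and it was also the highest of all cows in the follicle markers AMH and CYP17A1, with 611 normalized counts of AMH (next in P 37.01) and 339 of CYP17A1 (next in P 10.4). This cow had 521 normalized counts of COL16A1 (next 267), 1964 of COL5A1 (next 1337), 1132 of COL15A1 (next 599) and 61.9 of LAMC3 (next 27.6). NP cow 42 stood above the other NP cows in 3 chains, with 1079 normalized counts of COL12A1 (next 481), 169.9 of COL11A1 (next 61.5) and 239 of COL8A2 (next 43.4). NP cow 30 had 18.2 normalized counts of COL11A2 (next 8.38), P cow 27 had 19.8 of COL6A5 (next 5.23) and P cow 29 had 222 of COL13A1 (next 98.0). P cow 18 was below the other P cows in COL4A6, with 4.11 normalized counts (next 17.9).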

How the results depend on the processing

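All 13 called chains kept their direction in every alternative in which they were fitted, and all 13 were called with edgeR (TMM or upper quartile factors), DESeq2, limma-voom, other pseudocounts, no filter and 1 surrogate variable. With the stricter filters (a value of 30 in at least 6 cows, or of 60 in at least 1 cow) 3 chains were higher in place of 6, since some were no longer tested. A log2 fold change of at least 1 left 11 calls, all but COL4A1 and COL7A1. Leaving out 1 cow at a time gave 5 to 6 chains higher and 7 to 8 lower. The other alternatives were added after results were seen: without P cows 01, 18 and 28, 2 chains were higher and 3 lower, and with a covariate for the log2 library total 1 was higher and 0 lower (1408 and 510 of all genes called). The cause was not tested. In the 4 companion lists together (83 genes tested), 3 were higher and 11 lower, where 26.8% of all genes tested were called. These counts were 6 and 17 with no fold minimum (34.6% of all genes called). At a log2 fold change of at least 1 they were 1 and 6 (12.4% of all genes called). With 1 surrogate variable 7 were higher and 9 lower (20.6% of all genes called). Without P cows 01, 18 and 28, 2 were higher and 4 lower (11.8% of all genes called). With the covariate 0 were higher and 1 lower (4.28% of all genes called). The share of all genes called thus changed as well, so that these changes in count do not single out the lists. Leaving out 1 cow gave 3 to 6 higher and 9 to 16 lower. The ratio of COL3A1 to COL1A1 passed only without the 3 P cows (difference -0.46, adjusted exact permutation p = 0.0198). No paired analysis was possible because the groups share no cow numbers.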

Other observations

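Further ratios within a library, chosen after the values were seen, are given with no test. That of LAMB1 to LAMB3, beta chains of different laminins, ran from 43.2 to 118 (median 84.8) in NP and from 16.6 to 38.7 (median 23.2) in P cows, and the groups did not overlap. LAMB2 to LAMC1, partners in vascular laminins, gave from 0.732 to 1.41 (median 0.879) in NP and from 1.45 to 2.12 (median 1.61) in P cows, again with no overlap. COL4A5 to COL4A6 gave from 3.26 to 5.73 (median 4.81) in NP and from 2.54 to 14.9 (median 6.09) in P cows, and there P cow 28 was the lowest and P cow 19 the highest of all cows. COL4A1 to COL4A3 gave from 71.2 to 117 (median 86.99) in NP and from 25.3 to 90.9 (median 63.4) in P cows, with 5 P cows below all NP cows and P cow 27 among them. LAMC1 to LAMC3 gave from 11.5 to 44.8 (median 15.1) in NP and from 14.4 to 52.6 (median 41.97) in P cows, where NP cow 42 lay among the P cows and P cow 01 among the NP cows.

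Of the chains below the filter, COL28A1 had from 0 to 8.91 (median 3.73) normalized counts in P and from 0 to 1.56 (median 0.380) in NP cows, with at most 10 reads. COL26A1 had from 5.86 to 19.7 (median 13.9) in NP and from 2.97 to 14.0 (median 6.62) in P cows, COL9A2 from 2.51 to 9.85 (median 4.22) in NP and from 0.750 to 19.8 (median 7.58) in P cows, and COL20A1 from 0 to 1.64 (median 0.420) in NP and from 0 to 5.22 (median 0) in P cows. These chains are too low for a comparison at this depth.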
